A study of Homo sapiens with 33 samples.

Results

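The set described here holds 43 genes of DNA replication and the S phase of the cell cycle, chosen by symbol from the 56470 gene symbols of a bulk RNA sequencing count table, and all 43 were in the table and passed the filter on low counts in every comparison. The libraries came from 3 head and neck squamous cell carcinoma lines, SCC1 (UM-SCC-1), SCC6 (UM-SCC-6) and SCC25, which were given either 100 nM cetuximab, an antibody against the epidermal growth factor receptor (EGFR), or phosphate-buffered saline (PBS) as untreated control. There were 33 libraries, 1 per line, treatment and day. PBS libraries covered days 0 to 5 and cetuximab libraries days 1 to 5, except that 2 SCC6 cetuximab libraries were both labelled day 2 and none day 1. They are called 2a and 2b here, and their true days are unknown. No genetic change was made to the cells, each line is 1 established culture, and medium with drug or PBS was renewed daily. Because there was 1 library per day, the 5 days of each treatment stood in for replicates, and p-values measure the spread between these libraries, which includes any change over the days.

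Before a cell can copy its genome, the origin recognition complex (ORC) with CDC6 and CDT1 loads the ring-shaped MCM helicase onto DNA. In S phase CDC45, the GINS complex and MCM10 switch that helicase on, primase and the DNA polymerases copy the strands, and the sliding clamp PCNA with its RFC loaders holds the polymerases in place. Many of these genes are switched on together at the G1 to S transition by E2F transcription factors once the retinoblastoma protein is inactivated, a step that growth factor receptors such as EGFR promote in squamous epithelium.

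Promoter sequence was looked at first, because E2F factors are known to bind a common motif near the start of many replication genes. RefSeq promoter windows (GRCh38.p14, 250 bases before to 50 bases after the start site) were found for 37 of the 43 genes. The letters TTTCCCGC, TTTGGCGC, TTTCGCGC or TTTGCCGC, on either strand and with overlapping matches counted as 1, were present in 22 of those 37 windows (59.5%) and in 908 of all 27305 windows (3.33%). CCAAT, the letters bound by the factor NF-Y, was found in 21 of 37 windows (56.8%) and in 35.7% of all windows. Of 58 windows of other genes of the same pathways, counted further below, 33 (56.9%) held CCAAT, a share like that of the members, and 12 (20.7%) held the E2F letters. TTTGAA, the core of the cell cycle homology region of genes that peak later, in mitosis, was found in 1 of 37 (2.70%) against 15.4% of all, and the AP-1 letters TGACTCA or TGAGTCA in 0 of 37 against 4.92% of all. A match is only a match of letters. Some members with large changes described below, among them RRM2, TK1, MCM10 and CDC45, had none of the E2F letters in this window. The stretches below show the match in capitals with up to 16 bases on either side, end at the annotated start site at the latest, and are given for members to which the results return or which stand for a replication step.
MCM6, minus strand, chr2:135876568-135876611: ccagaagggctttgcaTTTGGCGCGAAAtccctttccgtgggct
MCM6, minus strand, chr2:135876506-135876549: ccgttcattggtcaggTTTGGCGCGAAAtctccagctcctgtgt
PCNA, minus strand, chr20:5126658-5126697: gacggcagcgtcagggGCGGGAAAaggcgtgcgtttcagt
GINS2, minus strand, chr16:85688962-85689001: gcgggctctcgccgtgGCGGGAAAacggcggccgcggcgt
CDT1, plus strand, chr16:88803738-88803777: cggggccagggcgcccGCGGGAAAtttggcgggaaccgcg
TYMS, plus strand, chr18:657598-657637: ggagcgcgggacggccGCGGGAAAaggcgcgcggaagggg
UHRF1, plus strand, chr19:4909471-4909500: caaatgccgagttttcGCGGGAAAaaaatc
POLA2, plus strand, chr11:65261893-65261932: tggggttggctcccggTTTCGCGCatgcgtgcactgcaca
E2F1, minus strand, chr20:33686395-33686434: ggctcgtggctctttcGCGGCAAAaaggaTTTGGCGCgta
E2F2, minus strand, chr1:23531252-23531291: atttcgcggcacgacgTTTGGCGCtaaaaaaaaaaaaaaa
PCNA, GINS2, CDT1, TYMS and UHRF1 carried the same letters, GCGGGAAA, which are TTTCCCGC read on the other strand. MCM6 carried 2 copies of a 12-base stretch in which TTTGGCGC and, on the other strand, TTTCGCGC overlap, and E2F1, itself an E2F gene, carried 2 neighbouring matches.

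Depth was high for these genes. Library totals ran from 28508758 to 80727478 estimated counts, of which the 43 members together took 97027 to 258931. The label of squamous carcinoma cells was checked against defining markers. KRT17, CDH1, SFN and EPCAM had a mean of 77.7 CPM (read counts scaled to a common library size) or more in every line and treatment. KRT5 and KRT14 were low in SCC6 PBS libraries (mean 2.38 and 3.95 CPM). PTPRC and CD3E of leukocytes stayed at or below 0.307 CPM. CD68, a macrophage marker of the same list, was between 3.73 and 231 CPM. It was called lower under cetuximab in SCC1, SCC6 and SCC25 (-2.15, -1.89 and -0.31). KDR, an endothelial marker of that list, was also expressed in SCC1, with an average log2 CPM of 3.304 over the PBS libraries. There it rose over the days without drug (0.307 per day on the log2 scale, adjusted p = 0.032 for the slope). Its change under cetuximab was not called in SCC1 or SCC25. In SCC25 PBS libraries its average log2 CPM was -1.901, and in SCC6 it was not tested for the cetuximab change. The sequencing runs did not cross the design. Of 5 flow cells, called A to E, SCC25 PBS and cetuximab days 1 and 2 were on A, SCC25 cetuximab days 3 to 5 and SCC1 PBS days 0 to 4 on B, SCC6 PBS days 0 and 1, SCC1 PBS day 5 and every SCC1 library with cetuximab on C, SCC6 PBS days 2 to 5 and cetuximab 2a, 2b and 3 on D, and SCC6 cetuximab days 4 and 5 on E.

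In SCC1, nearly the whole replication machinery was lower under cetuximab. Of the 43 members 42 were called lower at an adjusted p under 0.05 and 0 higher, where 22.0% of all 17984 genes tested were called lower and 22.5% higher. The median log2 fold change of the members was -0.63, against 0.02 over all genes tested. For the same 42 genes every cetuximab library lay below every PBS library of days 1 to 5, an order that 16.0% of all genes tested showed. In bulk RNA, fewer cells in S phase and less of each transcript per cell cannot be told apart. The plot of fold changes shows the 3 lines side by side.

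**Figure D1:**
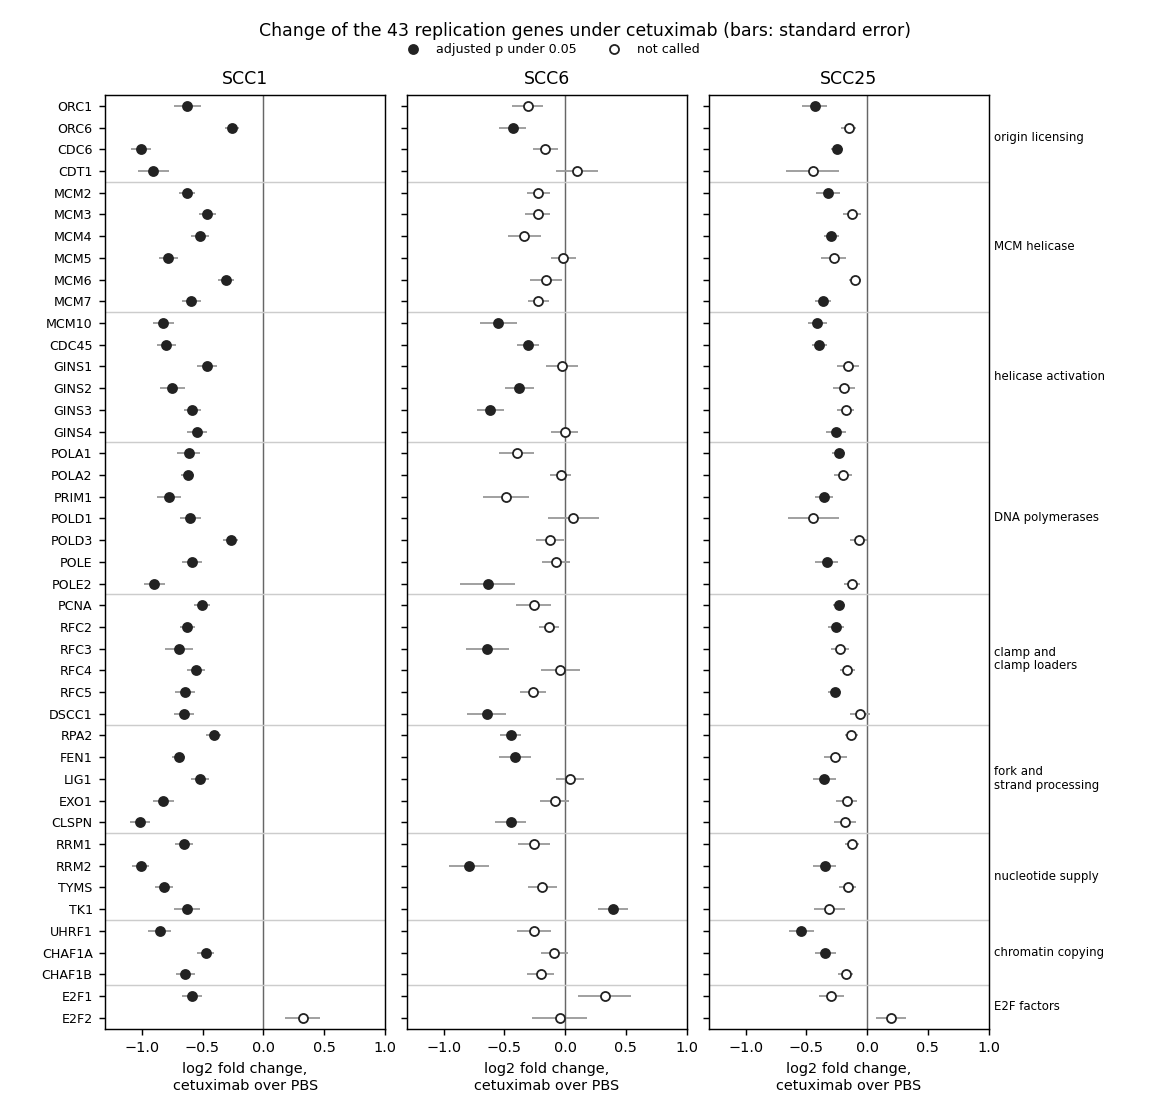
Log2 fold change of each of the 43 genes (rows, grouped by role) under cetuximab against PBS in SCC1, SCC6 and SCC25, days 1 to 5, 5 libraries against 5, with bars for the standard error; filled points had an adjusted p under 0.05. In SCC1 42 points are filled and lie left of 0, in SCC6 12 lie left and 1 (TK1) right, and in SCC25 18 lie left.

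The largest fall in SCC1 was that of CLSPN, which encodes claspin, the adaptor that carries the checkpoint signal at stalled forks. Its level was 78.3, 77.9, 85.5, 90.2 and 94.6 CPM in PBS on days 1 to 5, and 48.9, 39.7, 42.7, 42.6 and 35.8 CPM in cetuximab. The treated values stood well apart from the controls on every day. The means were 85.3 ± 7.34 and 42.0 ± 4.80 CPM (SD, n = 5 each), a log2 fold change of -1.01 (SE 0.08, adjusted p = 1.32e-06). RRM2, the regulated subunit of ribonucleotide reductase, which makes the deoxynucleotides that limit DNA synthesis, had 351, 309, 356, 386 and 355 CPM in PBS and 196, 160, 185, 168 and 158 CPM in cetuximab. Its lowest control day was thus far above its highest treated day, with a log2 fold change of -1.01 (SE 0.07, adjusted p = 6.41e-07).

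Every step of replication was represented in that fall. Among the licensing genes CDC6, the ATPase that helps to load the helicase, fell by 1.01 on the log2 scale (SE 0.08), from 138, 143, 160, 176 and 174 CPM to 87.0, 67.9, 84.1, 81.3 and 71.2 CPM on days 1 to 5. CDT1, its partner in loading, fell by 0.91 (SE 0.13) and ORC1, the ATPase subunit of ORC, by 0.63 (SE 0.11), whereas ORC6 was the member called lower with the smallest change, -0.26 (SE 0.06). The 6 MCM helicase subunits ranged from -0.31 (MCM6) to -0.78 (MCM5), and the 6 genes of helicase activation from -0.46 (GINS1) to -0.82 (MCM10). The 7 polymerase genes, which encode primase and subunits of polymerases alpha, delta and epsilon, ranged from -0.27 (POLD3) to -0.90 (POLE2).

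PCNA, the sliding clamp, fell by 0.50 (SE 0.07) from 218 ± 10.2 to 153 ± 15.3 CPM (SD, n = 5 each), and the 5 clamp loader genes with it by 0.56 to 0.70. In strand processing, FEN1, the flap nuclease that trims Okazaki fragments, LIG1, the ligase that joins them, EXO1 and RPA2, a subunit of the single-strand binding protein, were called lower along with CLSPN, the least being RPA2 at -0.41. TYMS, thymidylate synthase, TK1, thymidine kinase, and RRM1, the large subunit of ribonucleotide reductase, fell by 0.82, 0.63 and 0.66. UHRF1, which guides DNA methylation onto new strands, fell by 0.85 (SE 0.10) and the chromatin assembly genes CHAF1A and CHAF1B by 0.48 and 0.64.

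The pair of E2F genes parted. E2F1, an activator of S phase genes, was lower (-0.59, SE 0.08), with 29.7, 30.9, 31.3, 35.5 and 37.4 CPM in PBS and 25.3, 20.3, 21.4, 19.9 and 22.0 CPM in cetuximab. E2F2, a close relative expressed at a low level, was at 6.59, 4.52, 4.26, 5.32 and 4.25 CPM in PBS and 7.29, 5.03, 6.41, 5.90 and 6.33 CPM in cetuximab. These values overlapped, the log2 fold change was 0.32 (SE 0.14) and the test was not passed (adjusted p = 0.0829). With day as a replicate block, a pairing that the libraries of SCC1 bore out, E2F2 was the 1 member called higher (0.32, adjusted p = 0.0437), as it also was when the PBS library of day 1 was left out. The 42 members called lower stayed so whichever library was omitted.

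The fall in SCC1 was present on day 1 and larger after it. The median over the 43 members of the log2 ratio of each cetuximab library to PBS of the same day was -0.47, -0.60, -0.60, -0.80 and -0.83 on days 1 to 5, with 42 members lower on each day. On day 5 both libraries came from flow cell C, and on days 1 to 4 they came from C and B. Fitted by period, 42 members were lower on days 1 to 3 (15.6% of all genes tested) and 42 on days 4 and 5 (15.4%), with medians of -0.56 and -0.79. The difference between the periods was not called for any member (0 of 19660 genes tested by edgeR, or 0%), with 11 members at an unadjusted p under 0.05, and DESeq2 called 0 members too. The summed level of 8 squamous markers moved with treatment, from 1879 to 3145 CPM in PBS to 6855 to 11584 CPM in cetuximab. KRT5 (log2 fold change 2.58), KRT14 (1.84), KRT6A (2.75), KRT17 (2.47), TP63 (0.53) and CDH1 (0.98) were called higher. EPCAM (-0.73) was called lower and SFN (0.007) was not called. The sum of 8 fibroblast markers moved from 51.4 to 72.9 CPM in PBS to 96.3 to 221 CPM in cetuximab, mostly COL1A1, COL1A2 and FAP. DCN (2.88), COL1A2 (2.02), COL1A1 (1.72), LUM (1.28) and FAP (0.87) were called higher, while PDGFRA and THY1 stayed at or below 0.182 CPM. DCN and LUM started near the floor. Over the PBS libraries alone DCN did not pass the filter on low counts and LUM had an average log2 CPM of -1.64. The part of these markers in the result was not tested.

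**Figure D2:**
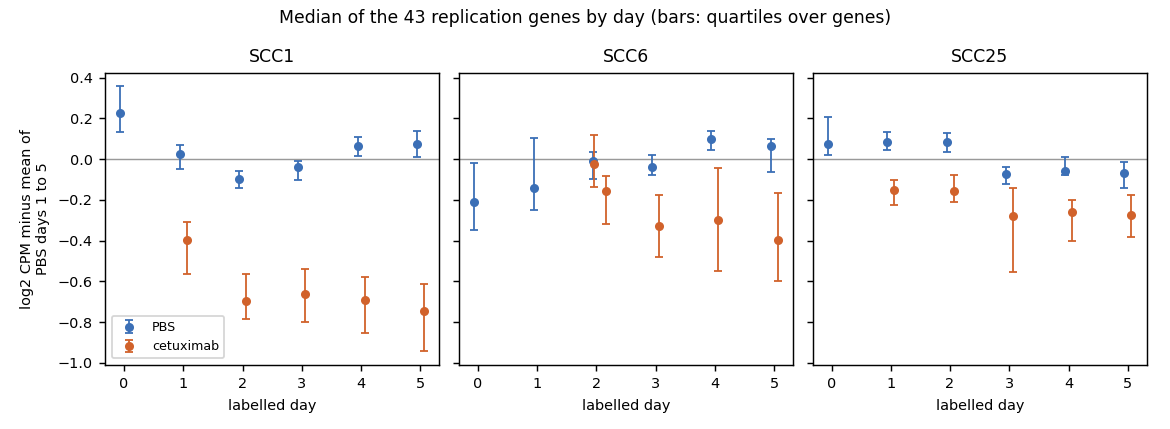
Median over the 43 genes of the log2 CPM in each library minus the mean of PBS days 1 to 5 of that line, by labelled day, with bars for the quartiles over genes; blue is PBS and orange cetuximab, and 2a and 2b stand side by side at day 2 in SCC6. Cetuximab medians lie between -0.39 and -0.74 in SCC1, between -0.02 and -0.40 in SCC6 and between -0.15 and -0.28 in SCC25.

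In SCC6 fewer members changed, and not all in 1 direction. Of the 43, 12 were called lower and 1 higher, where 14.5% of all 17387 genes tested were called lower and 15.5% higher, and the median was -0.22 against 0.00 over all genes. In 4 of the 43 members (ORC6, GINS3, RPA2 and RRM2) every cetuximab library lay below every PBS library, a share near the 8.33% of all genes tested. RRM2 fell most, by 0.79 (SE 0.16, adjusted p = 0.00385). It was at 387, 487, 463, 400 and 392 CPM in PBS on days 1 to 5 and at 348, 273, 237, 188 and 196 CPM in cetuximab 2a, 2b, 3, 4 and 5. Library 2a was the closest to the controls and the libraries of days 4 and 5 the farthest from them.

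DSCC1, a subunit of an alternative clamp loader that acts in sister chromatid cohesion, came next with a fall of 0.65 (SE 0.16, adjusted p = 0.0099). Its level was 45.0, 55.4, 51.5, 55.4 and 55.5 CPM in PBS and 47.5, 37.1, 32.3, 25.3 and 27.8 CPM in cetuximab, so that library 2a alone overlapped the controls. The others called lower were RFC3 (-0.64), POLE2 (-0.64), GINS3 (-0.62), MCM10 (-0.55), RPA2 (-0.45), CLSPN (-0.45), ORC6 (-0.43), FEN1 (-0.41), GINS2 (-0.38) and CDC45 (-0.31). By role, 4 of the 6 helicase activation genes and 3 of the 5 strand processing genes were called lower, but 0 of the 6 MCM helicase subunits by edgeR (medians -0.34, -0.41 and -0.22). CDC6, which lost about as much as CLSPN in SCC1, was at 114, 148, 156, 158 and 143 CPM in PBS and at 137, 135, 136, 120 and 124 CPM in cetuximab in SCC6, values that overlapped (-0.16, SE 0.10, adjusted p = 0.241).

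TK1, the salvage enzyme that phosphorylates thymidine, was called higher in SCC6. It was at 82.2, 64.9, 71.3, 88.0 and 72.7 CPM in PBS and at 85.0, 95.9, 87.8, 126 and 109 CPM in cetuximab, so the groups overlapped only through the PBS library of day 4 with cetuximab 2a and 3, and the highest values were the 2 libraries of flow cell E. The log2 fold change was 0.39 (SE 0.13, adjusted p = 0.0336). The call did not pass without PBS day 2, 3 or 5 or cetuximab day 4 or 5, with flow cell added to the model (0.26, adjusted p = 0.0724) or after removal of the GC trend described below (0.11, adjusted p = 0.537). E2F1 was at 58.8, 37.1, 40.9, 48.4 and 45.2 CPM in PBS and at 40.4, 45.2, 44.6, 83.2 and 78.6 CPM in cetuximab, where again the 2 libraries of flow cell E stood above the rest (0.33, SE 0.22, adjusted p = 0.282).

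The count of members lower in SCC6 moved with single libraries. It was 7 without PBS day 3 or cetuximab day 5 and 20 without cetuximab 2a. Against PBS of the same labelled day, the median log2 ratio was 0.01 in 2a, -0.12 in 2b and -0.29 on day 3, all within flow cell D, and -0.45 and -0.38 on days 4 and 5, between flow cells E and D. By period, 3 members (GINS3, RPA2 and RRM2) were lower on days 1 to 3 (9.61% of all genes tested), and 23 were lower (18.8%) and 2, TK1 and E2F1, higher (18.7%) on days 4 and 5. On days 4 and 5 POLE2, a polymerase epsilon subunit, was down by 1.25 (SE 0.24) and RRM2 by 1.05 (SE 0.17), while E2F1 was up by 0.78 (SE 0.20). The early count became 9 without cetuximab 2a and 7 without PBS day 1. The late count became 14, 12 and 15 without cetuximab day 4, cetuximab day 5 and PBS day 4. E2F1 and TK1 were not called in the late period without cetuximab day 4 or PBS day 5. The difference between periods was called for 0 members by edgeR (0% of all genes), for 10 by DESeq2 and for 11 without the filter on low counts, and 14 members had an unadjusted p under 0.05. It was called for 4 without PBS day 1 and for 2 without PBS day 3. The shares of all genes called in these other fits are not given here, so their counts have no background beside them. Late treatment and flow cell E cannot be told apart.

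The fibroblast marker sum moved with treatment in SCC6 too, from 3.44 to 5.33 CPM in PBS to 9.87 to 97.8 CPM in cetuximab, through COL1A1 and PDGFRB and with DCN and PDGFRA at or below 0.188 CPM. The squamous sum overlapped between the groups (1456 to 3020 CPM in PBS and 1946 to 2830 CPM in cetuximab), while its genes moved in opposite directions, KRT5 (2.35), KRT17 (1.399) and TP63 (1.21) higher and KRT6A (-3.54) and EPCAM (-0.93) lower. The sum of 8 leukocyte and endothelial markers was 17.1 to 19.9 CPM in PBS and 5.14 to 8.22 CPM in cetuximab, mostly CD68. Their part in the result was not tested.

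In SCC25 the changes were smaller than in SCC1. Of the 43, 18 were called lower and 0 higher, where 9.47% of all 19101 genes tested were called lower and 8.72% higher, and 42 had a negative log2 fold change, with a median of -0.25 against 0.01 over all genes. The libraries of SCC25 paired by day, and with day as a replicate block 28 members were called lower, in a fit that called 24.4% of all genes in either direction against 18.2% without the block. In 15 members every cetuximab library lay below every PBS library, against 7.89% of all genes tested. UHRF1 changed most among those called. It was at 91.4, 95.0, 78.8, 80.2 and 83.1 CPM in PBS and at 69.9, 68.4, 49.9, 52.8 and 54.2 CPM in cetuximab, 2 ranges that did not meet (-0.54, SE 0.10, adjusted p = 0.00382).

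ORC1 was at 27.0, 25.6, 23.7, 25.6 and 21.4 CPM in PBS and at 21.5, 20.2, 15.1, 18.4 and 16.5 CPM in cetuximab, where the lowest control touched the highest treated value (-0.43, SE 0.10, adjusted p = 0.0124). MCM10, MCM7, PRIM1, POLE, LIG1, CHAF1A and PCNA were called with it, with log2 fold changes of -0.41, -0.37, -0.35, -0.33, -0.35, -0.34 and -0.23. CDT1 and POLD1, the catalytic subunit of polymerase delta, had estimates of similar size (-0.45, SE 0.22 and -0.44, SE 0.21) and were not called, since their values were spread widely. CDT1 was at 37.3, 41.8, 15.3, 26.6 and 27.9 CPM in cetuximab on days 1 to 5 against 36.4 to 45.0 CPM in PBS, so that days 1 and 2 lay within the controls and day 3 was lowest. RRM2 was at 198, 184, 160, 154 and 133 CPM in PBS and at 137, 141, 131, 126 and 119 CPM in cetuximab (-0.35, SE 0.10, adjusted p = 0.0256). It was lower in cetuximab on each day, but the control itself came down to the treated range by day 5.

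The cetuximab libraries of days 1 and 2 shared flow cell A with all SCC25 controls, and within it 42 of 43 members were lower on each of the 2 days, with median log2 ratios of -0.28 and -0.22. On days 3 to 5, between flow cells B and A, the medians were -0.22, -0.24 and -0.17. With flow cell added to the model, which leaves those first 2 days to carry the comparison, 3 members were called lower (CDC6, CDC45 and UHRF1), where 6.55% of all genes were called in either direction, and the median was -0.15. By period, 7 members were lower on days 1 to 3 (3.76% of all genes tested) and 0 on days 4 and 5 by edgeR (1.23%, with 14 members at an unadjusted p under 0.05), and with day as a replicate block the counts were 17 and 5, where 11.1% and 4.39% of all genes were called in either direction. The early count was 0 without PBS day 1 or 2, 16 without cetuximab day 3, and 4 without PBS day 4 or 5 or cetuximab day 2, 4 or 5, and the late count was 18 without cetuximab day 3. The difference between the periods was called for 0 members by edgeR (0% of all genes) and by DESeq2, and 0 members had an unadjusted p under 0.05. The fibroblast marker sum moved with treatment, from 166 to 207 CPM to 262 to 390 CPM, with LUM (1.52), DCN (0.98), COL1A2 (0.69) and FAP (0.48) called higher, THY1 (-0.66) called lower and PDGFRA at or below 1.68 CPM, and its part in the result was not tested.

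**Figure D3:**
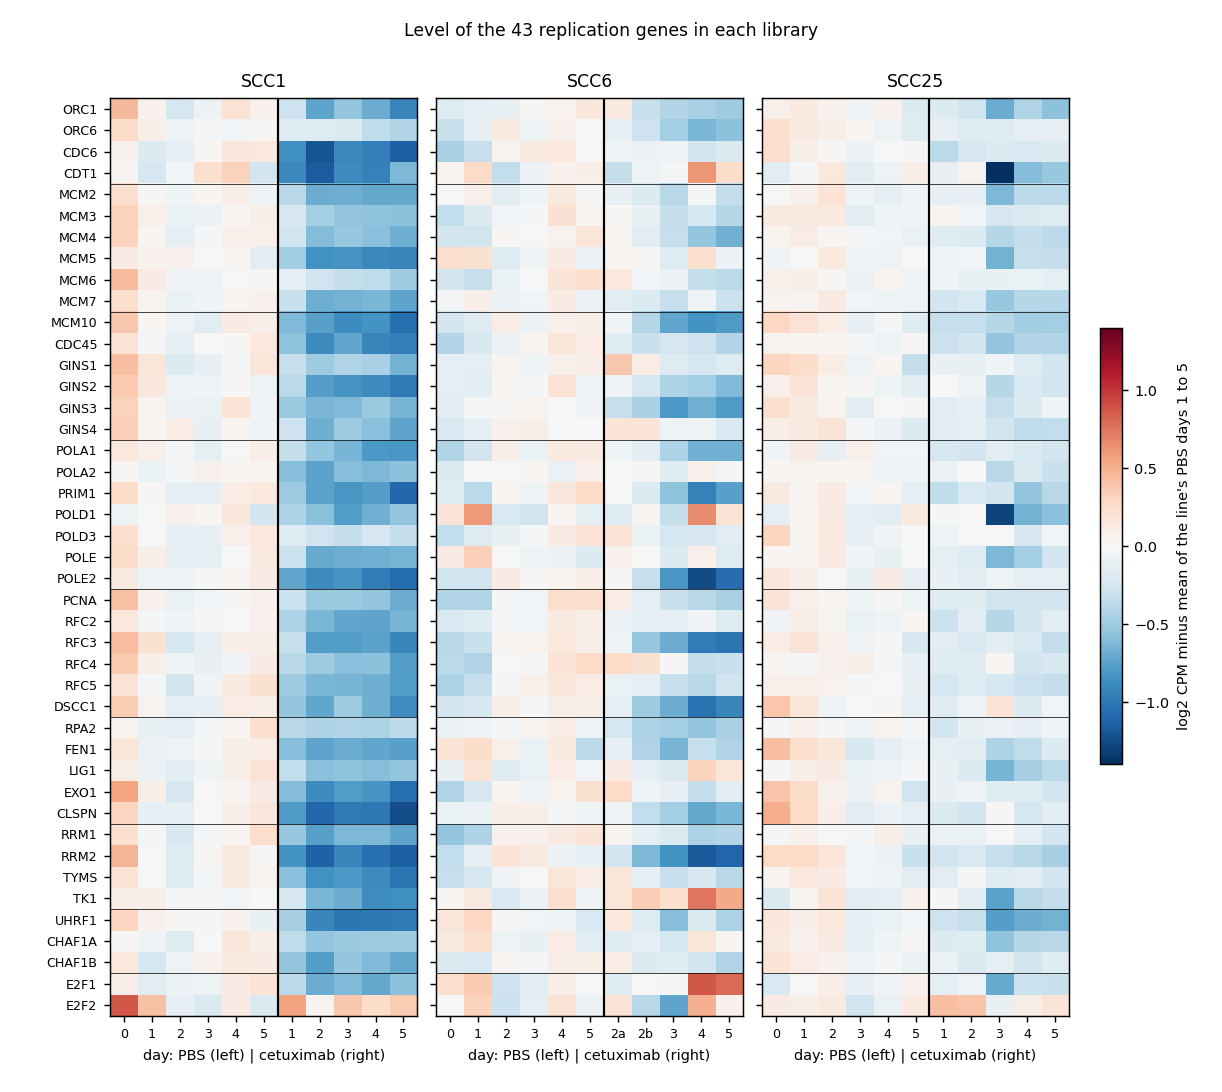
Level of each of the 43 genes (rows, grouped by role as in the plot of fold changes) in each of the 33 libraries (columns, by line, treatment and labelled day), as log2 CPM minus the mean of PBS days 1 to 5 of that line; blue is lower and red higher. The cetuximab columns of SCC1 are blue in all rows but E2F2, those of SCC6 deepen after library 2a with red for TK1 and E2F1 on days 4 and 5 and for CDT1 and POLD1 on day 4, and those of SCC25 are pale, with CDT1 and POLD1 darkest on day 3.

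The change under cetuximab differed between the lines for 29 of the 43 members (F test of the treatment by line term), against 26.0% of all 21414 genes tested. Compared pairwise, 23 members changed less downward or more upward in SCC6 than in SCC1, against 11.0% of all genes, and 18 did so in SCC25 against SCC1 (4.34%). In the other direction, which 8.19% and 4.16% of all genes took, the count of members was 0 in both comparisons. Between SCC25 and SCC6, 3 members (GINS3, DSCC1 and RPA2) fell less in SCC25 (7.33% of all genes) and 3 (TK1, E2F1 and LIG1) were lower in SCC25 relative to SCC6 (10.1%), so neither share of the 43 exceeded that over all genes. Those 6 became 10 without cetuximab 2a or PBS day 1 of SCC6.

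CDC6 differed most between the lines (adjusted p = 1.83e-06). Its change was 0.87 higher in SCC6 than in SCC1 (SE 0.12) and 0.77 higher in SCC25 than in SCC1 (SE 0.12), while SCC25 and SCC6 differed by -0.10 (SE 0.12, adjusted p = 0.634). In SCC25 it was at 107, 102, 95.1, 101 and 99.5 CPM in PBS and at 77.4, 85.4, 88.1, 87.0 and 88.3 CPM in cetuximab, separated but by a margin much smaller than in SCC1. POLA2, the accessory subunit of the polymerase alpha and primase complex that starts each new strand, came next (adjusted p = 2.94e-05). It was at 42.5, 44.5, 47.4, 46.4 and 46.5 CPM in SCC1 PBS and at 30.04, 26.9, 30.1, 29.2 and 30.4 CPM in cetuximab. In SCC6 it was at 30.3, 30.1, 31.0, 28.4 and 31.7 CPM and at 30.2, 30.6, 27.0, 31.7 and 29.98 CPM, the same range in both treatments (-0.04, SE 0.08). In SCC25 it was at 65.4, 64.1, 64.6, 60.7 and 60.8 CPM and at 59.0, 63.3, 48.1, 54.7 and 50.9 CPM, with overlap on day 2 alone (-0.20, SE 0.07, adjusted p = 0.0823).

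TK1 was the third member by p in this test (adjusted p = 0.00015). In SCC1 it was at 149, 138, 139, 137 and 141 CPM in PBS and at 121, 90.5, 86.9, 77.3 and 77.6 CPM in cetuximab, and in SCC25 at 116, 129, 102, 103 and 118 CPM and at 114, 102, 67.0, 86.1 and 89.8 CPM. Its change was 1.05 higher in SCC6 than in SCC1 (SE 0.18) while the difference SCC25 minus SCC6 was -0.72 (SE 0.18) and SCC25 minus SCC1 was 0.33 (SE 0.18, adjusted p = 0.309).

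**Figure D4:**
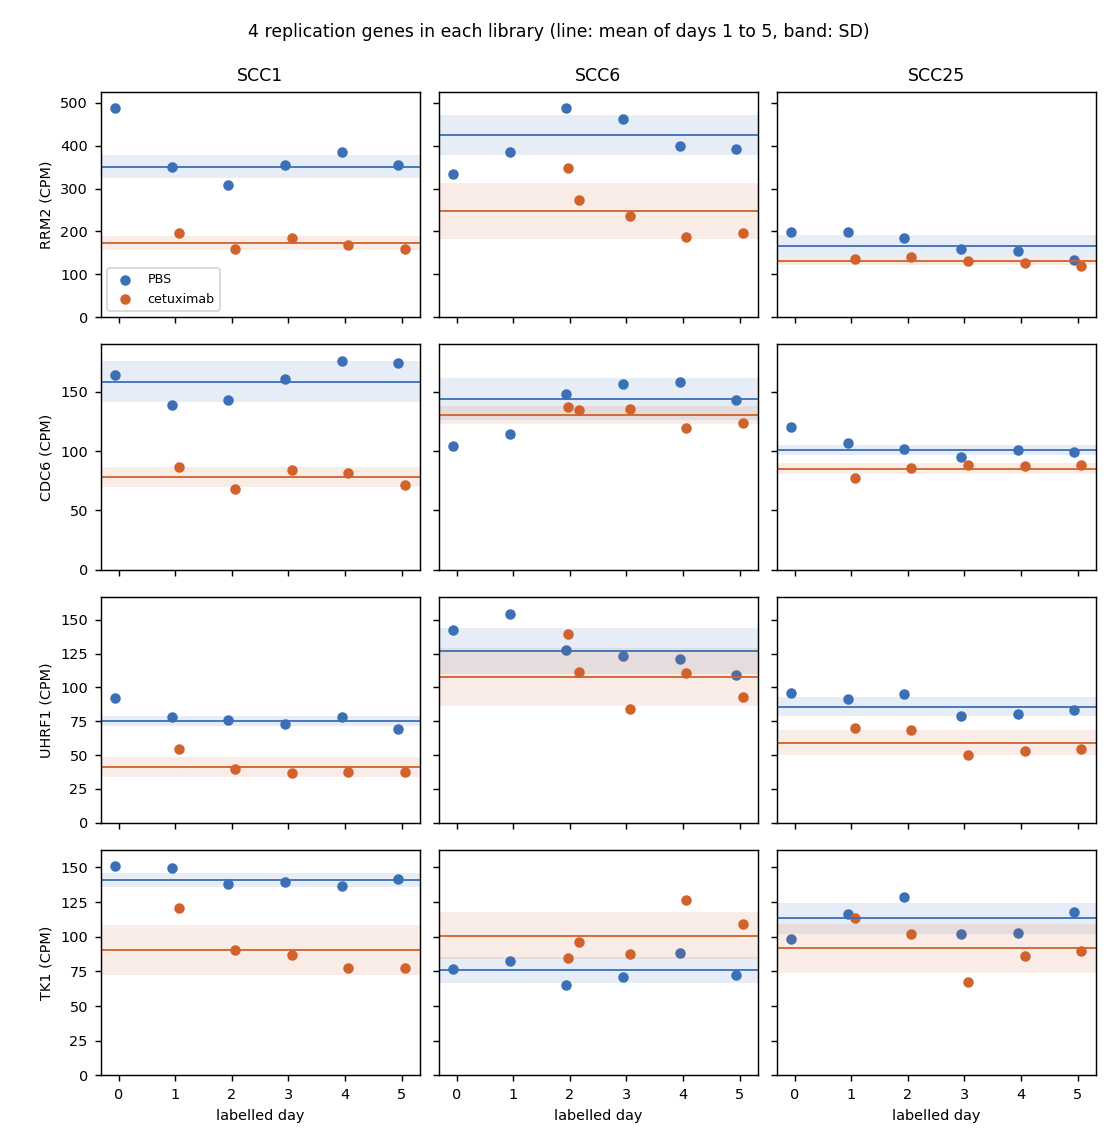
CPM of RRM2, CDC6, UHRF1 and TK1 (rows) in each library of SCC1, SCC6 and SCC25 (columns) by labelled day; blue points are PBS and orange points cetuximab, lines are the means of days 1 to 5 and bands their SD (5 libraries each). RRM2 is lower under cetuximab in all 3 lines, CDC6 separates widely in SCC1 (means of 158 and 78.3 CPM) and overlaps in SCC6, and TK1 is lower in SCC1 and higher in SCC6.

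Across the lines, 3 members were called lower in all 3, MCM10, CDC45 and RRM2, 24 in exactly 2 and 15 in 1, where 3.91% of the 15763 genes tested in all lines were called lower in all 3. Each of these members was among those called lower in SCC1. No share of all genes was computed for exactly 2 lines or for 1, so those counts have no background beside them. CDC45 in SCC6 was no longer called without PBS day 3, 4 or 5 or cetuximab 2b, 4 or 5. RRM2 in SCC25 was no longer called without PBS day 1, 2 or 3 or cetuximab day 4 or 5. MCM10 alone thus kept its 3 calls whichever library was omitted. With flow cell added to the model, however, MCM10 was not called in SCC25, while CDC45 was. MCM10 and CDC45 act at the same step, when the loaded helicase is switched on. MCM10 was at 36.4, 33.9, 31.8, 38.6 and 38.0 CPM in SCC1 PBS and at 23.3, 21.0, 19.3, 19.9 and 17.0 CPM in cetuximab. In SCC6 it was at 69.2, 84.5, 74.4, 82.5 and 83.2 CPM and at 76.0, 59.7, 47.5, 44.1 and 45.1 CPM, and in SCC25 at 77.8, 72.3, 62.1, 66.7 and 59.8 CPM and at 54.1, 54.0, 51.3, 48.3 and 48.4 CPM. Only library 2a of SCC6 came up to the controls. CDC45 went from 77.8 ± 5.44 to 44.4 ± 5.17 CPM in SCC1, from 63.6 ± 6.72 to 52.0 ± 3.06 CPM in SCC6 and from 45.8 ± 1.31 to 35.0 ± 2.74 CPM in SCC25 (SD, n = 5 each).

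The GC content of the members moved with their change, and differently in each line. Over the 43 members, the log2 fold change and the GC content of the longest transcript gave r = 0.10 (rho = 0.08) in SCC1, r = 0.65 (rho = 0.55) in SCC6 and r = -0.42 (rho = -0.53) in SCC25, a description of genes that share the same libraries. In SCC6 the 14 members of lowest GC content (38.0 to 44.5%) included 6 called lower, with a median of -0.42, and the 14 of highest (52.2 to 64.3%) included 1 lower and 1 higher, with a median of -0.06. TK1 (62.8%), E2F1 (61.6%), CDT1 (64.3%) and POLD1 (63.9%) were the 4 members of highest GC content, and all 4 had positive estimates in SCC6 and negative ones in SCC25. In SCC25 the same 2 groups had medians of -0.17 and -0.33, and in SCC1 of -0.65 and -0.61.

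The relation varied between libraries. Against PBS of the same labelled day, r over the members was 0.84 and 0.81 in the SCC6 libraries of days 4 and 5 on flow cell E, and 0.28, 0.59 and 0.49 in 2a, 2b and 3. It was -0.76, -0.26 and -0.71 in the SCC25 libraries of days 3, 4 and 5 on flow cell B, and 0.50 and -0.03 on days 1 and 2. In SCC1 it was 0.32, -0.13, -0.11, -0.09 and 0.45 on days 1 to 5, the last with both libraries on flow cell C. Well expressed genes as a whole (a log2 CPM of 3 or more on average) showed it too, with r of 0.54 and 0.50 (9421 genes) for SCC6 days 4 and 5 and of -0.65, -0.14 and -0.48 (9780 genes) for SCC25 days 3 to 5. Within 1 flow cell the same measure was 0.29 for SCC1 day 5 (9501 genes), 0.04, 0.23 and 0.17 for SCC6 2a, 2b and 3, and 0.28 and 0.01 for SCC25 days 1 and 2. When the trend of log2 CPM with GC content was taken out of every library, a setting chosen after the data were seen, 42, 21 and 33 members were lower in SCC1, SCC6 and SCC25 and 0, 0 and 1 higher, the 1 being E2F2 in SCC25 (0.28, adjusted p = 0.0187). In that setting 52.9%, 46.7% and 34.1% of all genes tested were called in either direction. CDT1 and POLD1 then had log2 fold changes of -0.24 and -0.22 in SCC6 (adjusted p = 0.126 and 0.0699) and of -0.35 and -0.34 in SCC25 (adjusted p = 0.0042 and 0.00572), and E2F1 was at 0.04 in SCC6 (adjusted p = 0.792). With GC trend and day block together, 40 members were lower in SCC25, where 42.7% of all genes were called in either direction.

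**Figure D5:**
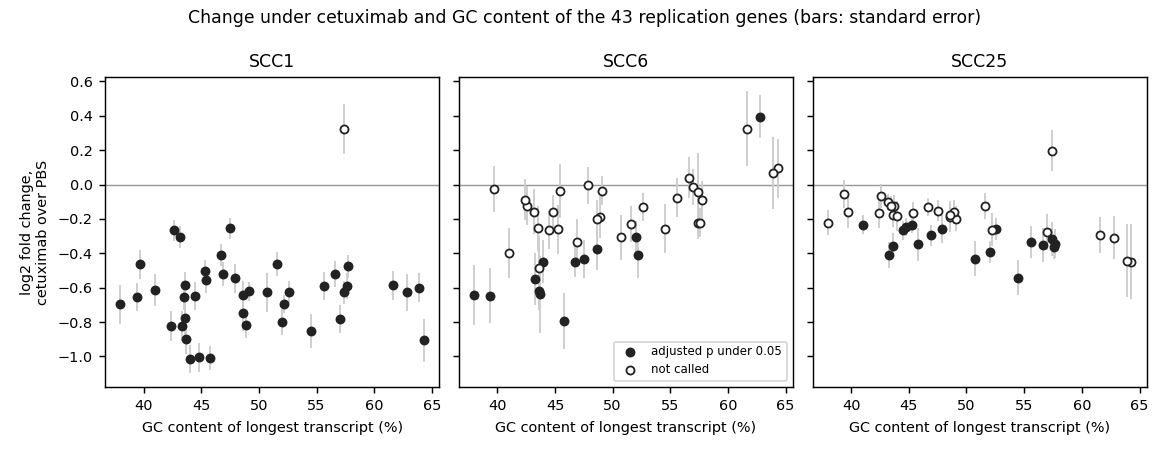
Log2 fold change under cetuximab of the 43 genes against the GC content of their longest transcript in SCC1, SCC6 and SCC25, with bars for the standard error; filled points had an adjusted p under 0.05. The points rise with GC content in SCC6 (r = 0.65), fall in SCC25 (r = -0.42) and show little slope in SCC1 (r = 0.10).

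Without drug, the level of 41 of the 43 members differed between the lines, a share close to the 87.2% of all 19744 genes tested, and CDT1 and FEN1 were the exceptions. SCC6 had the highest mean of the 3 lines for 20 members, SCC1 for 12 and SCC25 for 11. The widest ratio between lines, 2.93, was that of GINS1, a subunit of the GINS complex, which was at a mean of 49.98 CPM in SCC1, 21.4 CPM in SCC6 and 62.7 CPM in SCC25. POLA1, the catalytic subunit of polymerase alpha, followed in the order SCC1, SCC6, SCC25 with 22.9, 31.1 and 60.7 CPM. RRM2 was lowest in SCC25 (166 CPM, against 351 and 426 CPM in SCC1 and SCC6). Each of these 3 genes differed in all 3 pairs of lines, the smallest such difference being that of RRM2 between SCC6 and SCC1 (0.29 on the log2 scale, SE 0.10, adjusted p = 0.017).

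The members also moved over the days without drug, in SCC25 and SCC6. In SCC25 the slope over days 0 to 5 was negative and called for 8 members, against 3.82% of all 20017 genes tested, and 0 rose, against 7.22%. RRM2 was at 200, 198, 184, 160, 154 and 133 CPM on days 0 to 5, a slope of -0.12 per day on the log2 scale (SE 0.02, adjusted p = 0.000559). CLSPN was at 83.3, 70.8, 62.3, 52.3, 55.1 and 53.2 CPM (-0.13, SE 0.02, adjusted p = 0.00159). RRM2 went on falling to day 5 and CLSPN levelled after day 3, and all 6 libraries were on 1 flow cell. The others that fell were EXO1, GINS1, FEN1, MCM10, DSCC1 and ORC6. The count was 4 without day 0 and 5 without day 5.

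In SCC6, 14 members rose over the days in PBS and 3 fell, where 13.8% of all 17757 genes tested rose and 18.6% fell. PCNA was at 110, 111, 146, 144, 175 and 173 CPM (0.14 per day, SE 0.03, adjusted p = 0.00513) and RFC4, a clamp loader subunit, at 39.2, 38.0, 50.6, 50.0, 58.0 and 61.8 CPM (0.13 per day, SE 0.03, adjusted p = 0.00652). Both stepped up between days 1 and 2, where the libraries passed from flow cell C to D, so day and flow cell cannot be told apart there. UHRF1, POLE and FEN1 were the 3 that fell, a smaller share than over all genes. With days 1 to 5 alone 3 rose and 0 fell. Leaving out 1 library gave 3, 7, 9, 5 and 8 that rose without day 0, 1, 3, 4 and 5, and 0, 1, 1 and 0 that fell without day 0, 1, 3 and 5.

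In SCC1 no slope was called for any member by edgeR, with 7 at an unadjusted p under 0.05 and 1 called by DESeq2, where 0.856% of all 19045 genes tested fell and 1.83% rose. E2F2 had the smallest p, at 9.08, 6.59, 4.52, 4.26, 5.32 and 4.25 CPM (-0.19 per day, SE 0.06, adjusted p = 0.0959). GINS2 came next at 45.7, 39.7, 34.2, 34.3, 35.8 and 33.9 CPM (-0.08 per day, SE 0.03, adjusted p = 0.133). In both, day 0 was the highest library.

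Other genes of the same pathways, 72 in 6 lists, were counted in the same fits. In SCC1 57 of the 72 were lower and 4 higher, in SCC6 18 and 1, and in SCC25 19 and 3, with medians of -0.42, -0.28 and -0.18. By list, the counts of genes lower in SCC1, SCC6 and SCC25 were 12, 3 and 2 of 15 for origin licensing and firing, 15, 4 and 5 of 18 for the replisome and fork, and 7, 1 and 3 of 9 for nucleotide supply. They were 10, 3 and 2 of 11 for chromatin copying, 7, 4 and 4 of 10 for E2F and pocket proteins, and 6, 3 and 3 of 9 for S phase kinase activity. Of all genes tested, 22.0%, 14.5% and 9.47% were called lower in SCC1, SCC6 and SCC25, and 22.5%, 15.5% and 8.72% higher. Some list counts of genes lower lay near or below those shares, such as nucleotide supply in SCC6 and origin licensing and firing in SCC25.

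Of the 72, 9 were lower in all 3 lines, against 3.91% of the 15763 genes tested in all lines. CDC25A, the phosphatase that activates CDK2, had log2 fold changes of -0.98, -0.88 and -0.56 in SCC1, SCC6 and SCC25, TIPIN of the fork protection complex -0.77, -0.996 and -0.32, and NME1, a nucleoside diphosphate kinase, -0.54, -0.60 and -0.45. DNMT1, the maintenance DNA methyltransferase that UHRF1 recruits, had -0.91, -0.31 and -0.34, and E2F3, E2F4, TFDP1, POLE3 and MCMBP lay between -0.18 and -0.49. The genes called higher in some line were TFDP2, an E2F partner, with 0.51 in SCC1 and 0.25 in SCC25, and RBL2, the pocket protein p130 of resting cells, with 0.45 and 0.28, both not called in SCC6 (0.29 and 0.16). SHMT1, which supplies one-carbon units for thymidylate, was higher in SCC1 (0.18) and SCC6 (0.51), MCM9 in SCC1 (0.30) and ORC4 in SCC25 (0.22).

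Some values carry an added uncertainty from shared sequence. Exons of TYMS overlap ENOSF1 on the other strand, those of MCM7 overlap AP4M1, GINS1 NINL, GINS2 GSE1, RFC4 EIF4A2, RFC5 WSB2 and CHAF1A UBXN6, and on the same strand PRIM1 overlaps NACA, FEN1 FADS2 and CHAF1B MORC3 (GENCODE on GRCh37). POLA2, POLD1 and PRIM1 each also overlap on the same strand a protein-coding gene that has no symbol there. The library kit keeps the strand, which does not separate genes on the same strand, and the strand setting of the quantification is not given in the sources used here.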

How the data were processed

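Poly(A)-selected RNA was sequenced in 33 libraries with a stranded kit. Per the labels and methods, the authors quantified reads with Salmon 0.8.2 against the human genome build GRCh37 (hg19) and deposited estimated counts per gene symbol (63.2% whole numbers), which were rounded here. The annotation release was not given in the sources used here. Groups came from the labels. The members, lists and tests were chosen with earlier results of these data known.

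Within each line, cetuximab and PBS libraries of days 1 to 5 were compared by edgeR's quasi-likelihood F test (version 4.0.16, robust fit, TMM scaling, filterByExpr), with Benjamini-Hochberg adjustment over all genes tested and 0.05 as threshold. One fit of all 30 libraries tested line by treatment, further fits the periods (days 1 to 3 and 4 to 5) and the slope over PBS days, and a fit of PBS days 1 to 5 the level between lines. CPM used TMM factors over all 33 libraries, and log2 ratios of CPM a pseudocount of 0.1. SE is the log2 fold change over the square root of F. Named with values in every library were the 2 called members with the largest fall per line, those called higher, the 3 with the smallest p between lines and the 2 with the smallest p in each slope. E2F1, E2F2, MCM10 and CDT1 were shown after their values were seen. No interval for counting error was computed. The tests were tried on simulated counts.

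Deviations from group means of libraries of the same line and day correlated (over genes averaging a log2 CPM of 3 or more) with r of 0.12 to 0.40 in SCC1 and 0.23 to 0.59 in SCC25, so days paired the libraries there, but not in SCC6 (0.57 and 0.54 for 2a and 2b with PBS day 2, and 0.59, -0.19 and 9.2e-05 on days 3, 4 and 5). Alternatives were DESeq2, its size factors, library totals alone, centring on the median of all genes, no filter, day 0 added, slopes over days 1 to 5, day as block, flow cell as covariate, each library left out and, added later, removal of each library's GC trend (a spline with 5 degrees of freedom).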

Additional observations from a re-analysis of the deposited data

Results flagged for a closer look

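The cetuximab change of 29 members differed between the 3 lines by the treatment by line term. The 3 named for the smallest p were CDC6 (adjusted p = 1.83e-06), POLA2 (2.94e-05) and TK1 (0.00015).

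In 4 of 78 groups of 5 libraries looked at (12 members and the summed level of all 43, in 6 groups each) 1 library lay far from its group by Dixon's criterion, which chance meets in about 1 of 20. RFC4 was at 79.8 CPM in the SCC25 cetuximab library of day 3, with the next at 69.5 CPM, and UHRF1 was at 54.3 CPM in the SCC1 cetuximab library of day 1, with the next at 39.7 CPM. ORC1 was at 51.6 CPM in SCC6 cetuximab 2a, with the next at 37.7 CPM, and CDC6 was at 77.4 CPM in the SCC25 cetuximab library of day 1, with the next at 85.4 CPM.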

How the results depend on the processing

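No called change and no count turned direction, but the estimates of 9 members in SCC6 and 1 in SCC25, all not called, took both signs over the settings (CDT1 from -0.24 to 0.19 in SCC6). With the GC trend removed, the members lower were 21 and higher 0 in SCC6 and 33 and 1 in SCC25 (40 and 1 with the day block too), lower on days 1 to 3 were 9 (1 higher) in SCC6 and 27 (1 higher) in SCC25, those on days 4 and 5 were 17 lower in SCC25 and 0 higher in SCC6, and those that fell without drug were 0 in SCC6 and 20 in SCC25. With flow cell in the model, 0 were higher in SCC6, 3 were lower in SCC25 with a median of -0.15, and 0 differed between SCC25 and SCC6. With day as a replicate block, 1 was higher in SCC1 (also with the GC trend removed), and 28, 17 and 5 were lower in SCC25 over all, early and late days. In SCC6, where the days did not pair the libraries, the block gave 9 lower and 1 higher with 2a taken as day 1 and 11 and 1 with 2b (8 on the early days). With DESeq2, 6 early members were lower and 10 differed between periods in SCC6, 15 and 5 were lower early and late in SCC25, and 1 fell without drug in SCC1. DESeq2 size factors gave 11 early in SCC25. Without the filter 5 were lower early, 11 differed between periods and 9 rose in SCC6, 1 was lower late in SCC25, 1 fell in SCC1 and 3 differed between SCC25 and SCC6. Slopes over days 1 to 5 gave 0 that fell and 3 that rose in SCC6 and 4 that fell in SCC25. Leaving out 1 library gave 0 to 1 higher in SCC1 overall and early, 7 to 20 lower and 0 to 1 higher in SCC6, 2 to 9 lower and 0 to 1 higher early, 12 to 26 lower and 0 to 3 higher late, 0 to 4 that differed between periods, and slopes of 0 to 4 that fell and 3 to 16 that rose. In SCC25 it gave 12 to 21 lower, 0 to 16 lower and 0 to 1 higher early, 0 to 18 lower late and 4 to 9 that fell, and 4 to 10 differed between SCC25 and SCC6. The counts of this section are given without the share of all genes called under the same setting. They show how far the main counts moved and are not set against a background. The causes of these shifts were not tested. Members called in all settings numbered 39 of 42 in SCC1, 7 of 13 in SCC6 and 3 of 18 in SCC25. No day had a replicate.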
